A study of Mus musculus with 4 samples.

Results

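Astrocyte cultures from the ventral mesencephalon and the olfactory bulb were set against cultures from the subventricular zone and the hippocampus, with 1 array per region. A gene was counted as split when both arrays of one side lay above both arrays of the other. Its members were therefore chosen by these same measured signals, so the values below describe them and test nothing. Of 12393 genes measured, 7987 had a signal above a floor of 122.1 on at least 1 array, and 2930 of those were split. The floor is the median of all deposited signals, and lower signals were raised to it before taking log2, because low signals carry no dependable order.

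All 4 cultures came from CD-1 mice, an outbred stock, at postnatal day 3, and no group carried a transgene, a mutation or a drug. Tissue was dissociated, grown in DMEM with 10% serum, shaken to enrich for astroglia and replated as monolayers, and pups were pooled before culture. The ventral mesencephalon is the floor of the midbrain and the olfactory bulb the foremost relay for smell. The subventricular zone is the germinal layer along the lateral ventricle and the hippocampus is medial cortex. The regions on each side differ from each other, so they were not treated as replicates, and no p-value is given.

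Primary astrocyte cultures start from brain pieces that can carry meninges, the connective tissue sheet around the brain, and serum favours dividing cells of any kind. Meningeal fibroblasts secrete fibrillar collagens and carry transcription factors of neural crest and mesoderm. Astrocytes descend from radial glia, take up glutamate and potassium, and make much of the cholesterol and several of the amino acids that neurons use. In these whole-culture arrays, fewer cells of a type and less RNA per cell cannot be told apart.

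The summed signals of fibroblast markers and of astrocyte markers were themselves arranged along the split, although other measures of these lists were less so. The summed signal of 32 fibroblast and meningeal markers was 64700 in ventral mesencephalon and 102518 in olfactory bulb cultures, against 27855 in subventricular zone and 44960 in hippocampus cultures. The summed signal of 46 astrocyte markers was 57456 and 79239 in ventral mesencephalon and olfactory bulb cultures, against 97619 and 117512 in subventricular zone and hippocampus cultures. Of the fibroblast markers, 24 and 29 were above the floor in ventral mesencephalon and olfactory bulb cultures, against 18 and 24 in subventricular zone and hippocampus cultures, and Slc6a13, Dpt and Fap were at the floor throughout. Of the astrocyte markers, 28 and 34 were above the floor in ventral mesencephalon and olfactory bulb cultures, against 31 and 39 in subventricular zone and hippocampus cultures; Slc1a2 was among the 7 at the floor throughout. Microglia and macrophage markers did not follow the split: 49 of them summed to 4450 in ventral mesencephalon and 70951 in olfactory bulb cultures, against 6859 in subventricular zone and 88774 in hippocampus cultures. In neither the fibroblast nor the astrocyte list did the counts above the floor separate the sides. Of 29 fibroblast markers above the floor on any array, 12 (41.4%) were split higher and 2 lower. Their median was 0.14 (log2) for ventral mesencephalon minus hippocampus, against -1.05 for subventricular zone minus hippocampus. The astrocyte median was -0.37 for olfactory bulb minus subventricular zone, against -0.43 for subventricular zone minus hippocampus. The arrays had 11144 to 11835 probe sets above the floor. The part of these cell types in the differences below was not tested.

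Among the markers used to check the label, Col3a1, a fibrillar collagen, had signals of 9394 in ventral mesencephalon and 10549 in olfactory bulb cultures, against 176 in subventricular zone and 5271 in hippocampus cultures. Dcn, which encodes decorin, a collagen-binding proteoglycan, had 6320 and 7039 in ventral mesencephalon and olfactory bulb cultures, against 63.9 in subventricular zone and 2319 in hippocampus cultures. Both were split, but the hippocampus culture lay far closer to the mesencephalon and bulb than the subventricular zone culture did. Lum, which encodes lumican, another collagen-binding proteoglycan, was not split, with 1048 in ventral mesencephalon and 127.5 in olfactory bulb cultures, against 17.9 in subventricular zone and 369.9 in hippocampus cultures. Aldh1l1, which metabolises folate and serves as a marker of astrocytes, was lower at 1711 and 310.8 in ventral mesencephalon and olfactory bulb cultures, against 5106 in subventricular zone and 1727 in hippocampus cultures. Its log2 gap of -0.01 between ventral mesencephalon and hippocampus sits at the very edge of the definition.

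The split was common and mostly narrow. Both arrays from ventral mesencephalon and olfactory bulb lay above the others for 1332 genes, 16.7% of the 7987, and below them for 1598, or 20.0%. A random order of 4 arrays without ties would also give about 16.7% in each direction. These shares alone therefore do not set this pairing of regions apart, and other pairings were not counted here. A gap of at least 2-fold between the nearest arrays of the sides was found for 96 higher genes, 1.2% of the 7987, and for 136 lower genes, 1.7%. On the log2 scale the gap was under 0.1 for 417 of the higher and 424 of the lower genes, with medians of 0.188 and -0.222. A further 568 genes missed the split by under 0.1 in the higher direction and 520 in the lower one. Among the 6048 genes above the floor on all 4 arrays, 1135 (18.8%) were split higher and 1258 (20.8%) lower. Without the genes of the fibroblast, collagen, matrix glycoprotein and basement membrane lists, 1295 genes were still split higher and 1591 lower, 80 and 133 of them by 2-fold.

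Arrays of the same side were correlated within the range seen between the sides. Across the 7987 genes the correlation of log2 signals was 0.87 between ventral mesencephalon and olfactory bulb and 0.873 between subventricular zone and hippocampus. Across the sides it was 0.896 for ventral mesencephalon with subventricular zone, 0.829 for ventral mesencephalon with hippocampus, 0.812 for olfactory bulb with subventricular zone and 0.87 for olfactory bulb with hippocampus. These correlations are across genes of arrays that share probe design, so they are descriptions. The 2-fold genes stood out from this background by construction: the gap was wider than either within-side difference in 78 of the 96 higher and 122 of the 136 lower genes. These differences were taken on floored signals. In 18 of the 96 and 28 of the 136, both arrays of the side with less signal were at the floor. The floor itself removed any difference within that side.

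**Figure D1:**
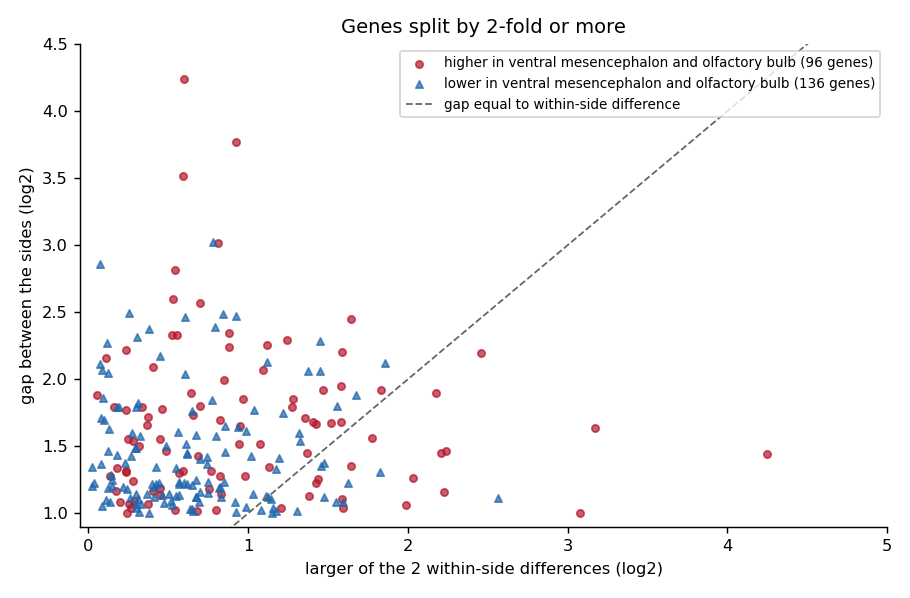
Gap between the sides (vertical axis, log2) against the larger of the within-side differences (horizontal axis, log2), both on floored signals, for the genes split by 2-fold or more. Circles are the 96 genes higher and triangles the 136 genes lower in ventral mesencephalon and olfactory bulb cultures; 78 and 122 of them lie above the dashed line, where both differences are equal, and Dcn lies farthest to the right.

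At the edge of the 2-fold class, the nearest genes inside it in the higher direction were Myo1c, Mmp2 and Cdc42ep5, with gaps of 2.001, 2.009 and 2.022-fold. The nearest outside were Prickle1, Itpr3 and P3h4, with 1.999, 1.988 and 1.977-fold. In the lower direction Mok, Ezr and Lama5 lay just inside at 2.004, 2.007 and 2.011-fold, and Sox9, Spint2 and Id4 just outside at 1.996, 1.996 and 1.985-fold. Nothing separates the genes on either side of this limit but the limit.

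The widest gap of all belonged to Thbd, which encodes thrombomodulin, a membrane receptor that turns thrombin into an anticoagulant. Its signal was 5383 in ventral mesencephalon and 8004 in olfactory bulb cultures, against 188.7 in subventricular zone and 285.2 in hippocampus cultures. The nearest arrays were 18.9-fold apart. Smoc2 and Smoc1, secreted calcium-binding relatives of SPARC, came next. Smoc2 had 3874 and 2045 in ventral mesencephalon and olfactory bulb cultures, against 44.5 and 149.8 in subventricular zone and hippocampus cultures, a gap of 13.7-fold. Smoc1 had 1399 and 2110 in ventral mesencephalon and olfactory bulb cultures, against 30.9 and 114.6 in subventricular zone and hippocampus cultures, both under the floor, which makes it at least 11.5-fold higher.

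Several of the other widest genes were enzymes and protease inhibitors and not matrix proteins. Ptgis, the synthase that makes prostacyclin, had 1736 and 2966 in ventral mesencephalon and olfactory bulb cultures, against 15.8 and 214.4 in subventricular zone and hippocampus cultures, a gap of 8.10-fold. Cbr2, a carbonyl reductase, had 1535 and 946.3 in ventral mesencephalon and olfactory bulb cultures, against 2.6 and 159.2 in subventricular zone and hippocampus cultures. The intracellular serpin Serpinb9b had 1067 and 739 in ventral mesencephalon and olfactory bulb cultures, against 107 and 26.8 in subventricular zone and hippocampus cultures, and was at least 6.05-fold higher. Serpinb6b, a serpin of the same clade, had 1895 and 1028 in ventral mesencephalon and olfactory bulb cultures, against 86.2 and 217.0 in subventricular zone and hippocampus cultures. Hs6st2, a heparan sulfate sulfotransferase, had 891.9 and 1313 in ventral mesencephalon and olfactory bulb cultures, against 120.4 and 177.2 in subventricular zone and hippocampus cultures. By the definition of a split, no array of one side reached the other in these 5 genes. In all 5, the subventricular zone or the hippocampus culture was at or close to the floor.

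**Figure D2:**
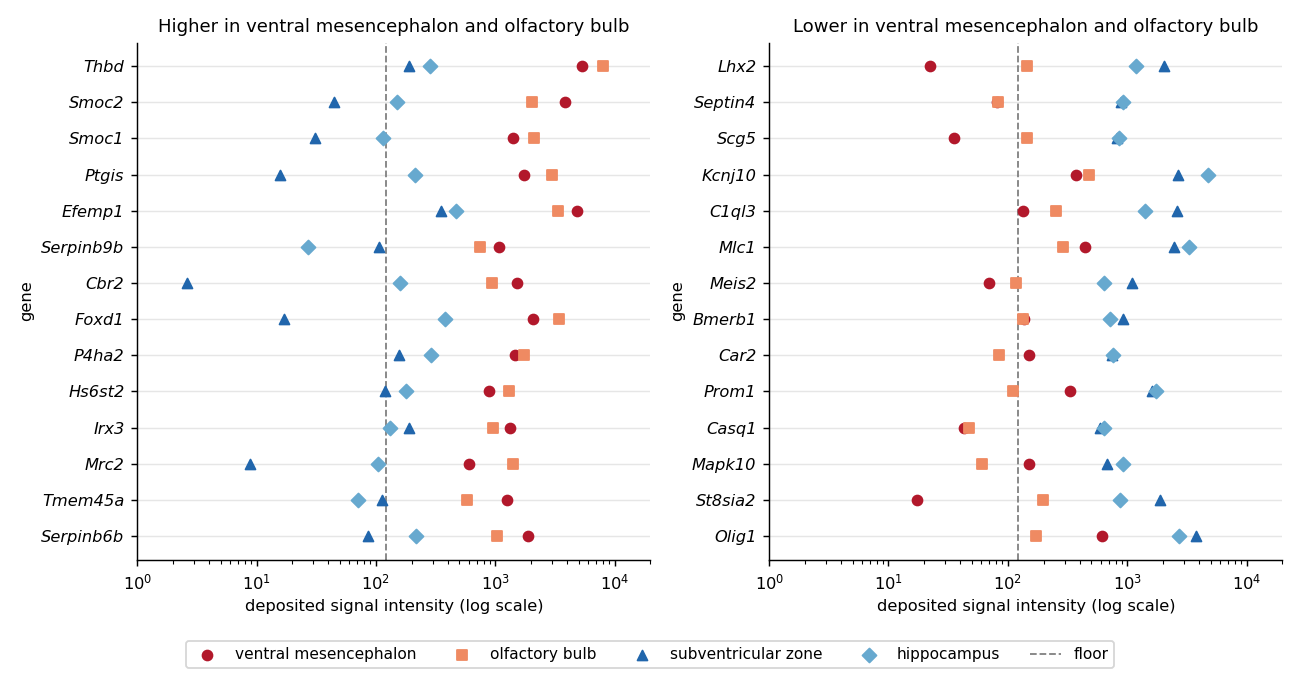
Deposited signal intensity (horizontal log axis) on each of the 4 arrays for the 14 genes with the widest gap in each direction, one gene per row. Circles and squares are ventral mesencephalon and olfactory bulb, triangles and diamonds subventricular zone and hippocampus, and the dashed line is the floor of 122.1. Thbd heads the higher genes with a gap of 18.9-fold and Lhx2 the lower genes with 8.12-fold.

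Genes for making and maturing collagen were frequent among the higher genes. Of 22 enzymes and chaperones of collagen processing above the floor, 16 (72.7%) were split higher and 0 lower, 5 of them by 2-fold, and the median difference of the sides was 0.66 on the log2 scale, beside -0.02 over all 7987 genes. Among 24 collagen genes above the floor, 11 (45.8%) were split higher and 2 lower, with a median difference of 0.68. P4ha2, a subunit of collagen prolyl 4-hydroxylase, had signals of 1471 and 1732 in ventral mesencephalon and olfactory bulb cultures, against 156.8 and 289.3 in subventricular zone and hippocampus cultures, a gap of 5.08-fold. Lox, the lysyl oxidase that crosslinks collagen and elastin, had 10067 and 8828 in ventral mesencephalon and olfactory bulb cultures, against 654.9 and 2327 in subventricular zone and hippocampus cultures. Pcolce, an enhancer of procollagen cleavage, had gaps of the same kind at 4226 and 7030 in ventral mesencephalon and olfactory bulb cultures, against 418.6 and 1431 in subventricular zone and hippocampus cultures. The prolyl 3-hydroxylase P3h3 and its partner Crtap were higher with gaps of 2.10 and 2.03-fold. Named after their values were seen, the 6 members that were not split were Loxl1, Loxl3, Bmp1, Pcolce2, Tll1 and Fkbp11.

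Enzymes that cut matrix, and their inhibitors, lay on the same side. Of 29 above the floor, 11 (37.9%) were split higher and 0 lower, with a median difference of 0.52. Ctsk, the collagen-degrading cathepsin K, had 866 and 1228 in ventral mesencephalon and olfactory bulb cultures, against 23.5 and 239.3 in subventricular zone and hippocampus cultures, a gap of 3.62-fold. The membrane-anchored metalloproteinase Mmp16 had 390.7 in ventral mesencephalon and 1844 in olfactory bulb cultures, against 123.6 and 141.6 in subventricular zone and hippocampus cultures. The aggrecan-cleaving proteases Adamts4 and Adamts5 were higher by at least 2.12-fold and by 2.06-fold. Sulfated sugar chains of proteoglycans were made by a set in which 13 of 32 (40.6%) were split higher and 4 lower; besides Hs6st2, the epimerase Glce had a gap of 2.36-fold.

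Transcription factors of meninges, neural crest and mesenchyme were prominent among the higher genes. Of 32 above the floor, 17 (53.1%) were split higher, 7 of them by 2-fold, and 3 were split lower, with a median difference of 1.02. Foxd1 had signals of 2088 and 3407 in ventral mesencephalon and olfactory bulb cultures, against 17.1 and 381.6 in subventricular zone and hippocampus cultures. Foxc2 had 736.3 and 4041 in ventral mesencephalon and olfactory bulb cultures, against 19.8 and 160.4 in subventricular zone and hippocampus cultures. The gaps were 5.47-fold and 4.59-fold, and for Foxc2 the olfactory bulb was well above the mesencephalon. Prrx2, a homeobox factor of mesenchyme, was higher by 3.32-fold, Osr1 by 3.17-fold and Tbx15 by 3.16-fold. The 3 lower members were Sox9, Tcf4 and Zeb1, which glial cells also carry, named here after their values were seen. The fibroblast marker sums were arranged the same way, and how far they account for these factors was not tested.

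Single patterning genes of the brain had wide gaps in both directions. The Iroquois homeobox gene Irx3, which marks midbrain and more caudal neural tube, had 1331 and 950 in ventral mesencephalon and olfactory bulb cultures, against 189.3 and 131.8 in subventricular zone and hippocampus cultures, a gap of 5.02-fold. Irx5, its neighbour in the family, had 349.3 and 308.3 in ventral mesencephalon and olfactory bulb cultures, against 33.3 and 44.5 in subventricular zone and hippocampus cultures, at least 2.53-fold higher. These were the 2 split members of 14 midbrain and floor plate factors above the floor, 14.3%, which is below the 16.7% of all genes. Of 12 telencephalic factors above the floor, 0 were split higher and 5 (41.7%) lower. Lhx2, a LIM homeobox gene of cortex and hippocampus, had 22.2 and 145.2 in ventral mesencephalon and olfactory bulb cultures, against 2027 and 1178 in subventricular zone and hippocampus cultures. Meis2, a homeobox cofactor of the ganglionic eminence and its derivatives, had 69.6 and 116.7 in ventral mesencephalon and olfactory bulb cultures, against 1108 and 639.9 in subventricular zone and hippocampus cultures. Lhx2 had the widest gap of all lower genes, 8.12-fold, and Meis2 was at least 5.24-fold lower. The olfactory bulb is itself telencephalic. Both genes were named for their split, which by definition places the bulb culture with the midbrain culture. The other 7 telencephalic factors above the floor were not split.

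Secreted signals, their binding proteins and receptors gave some of the larger single differences, although most of their lists were near the background. Bmp4, a bone morphogenetic protein, had 1752 and 1886 in ventral mesencephalon and olfactory bulb cultures, against 194.9 and 416.7 in subventricular zone and hippocampus cultures, a gap of 4.20-fold. It was the 1 member of the TGF-beta and BMP list with a 2-fold gap, and 8 of 34 members (23.5%) were split higher and 4 lower. Ccn4, a matricellular protein induced by Wnt signalling, had 1038 and 1125 in ventral mesencephalon and olfactory bulb cultures, against 190 and 223.4 in subventricular zone and hippocampus cultures. Ccn2, the connective tissue growth factor, had 11747 and 8890 in ventral mesencephalon and olfactory bulb cultures, against 3178 and 3958 in subventricular zone and hippocampus cultures. Rspo2, an R-spondin that amplifies Wnt signals, was at least 3.10-fold higher, with 379.1 in ventral mesencephalon and 3409 in olfactory bulb cultures, against 11.3 and 111.3 in subventricular zone and hippocampus cultures. In the opposite direction Wnt7a, a Wnt ligand of neural progenitors, was at least 2.81-fold lower, with 14 and 39 in ventral mesencephalon and olfactory bulb cultures, against 420.1 and 342.5 in subventricular zone and hippocampus cultures.

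Growth factor genes showed the same scatter of single members. Igfbp6, which binds insulin-like growth factor 2, was at least 4.62-fold higher, and Grb10, an adaptor that dampens insulin receptor signalling, 3.47-fold higher. Egfr, the receptor for epidermal growth factor, had 441.8 and 1072 in ventral mesencephalon and olfactory bulb cultures, against 116.7 and 76.8 in subventricular zone and hippocampus cultures, at least 3.62-fold higher. Vegfd, a lymphatic growth factor, was at least 2.84-fold higher, and Fgf13, an intracellular fibroblast growth factor homologue, at least 2.22-fold lower. Npr3, the clearance receptor for natriuretic peptides, had 1412 and 3562 in ventral mesencephalon and olfactory bulb cultures, against 54.9 and 365.5 in subventricular zone and hippocampus cultures. In the eicosanoid list only Ptgis and Ptges, the inducible prostaglandin E synthase, had 2-fold gaps, and 3 of 18 members (16.7%) were split higher, the same share as among all genes. Of 23 genes of coagulation and its control, 6 (26.1%) were split higher; after Thbd these were led by Tfpi, the tissue factor pathway inhibitor, at 3.20-fold and by the annexin Anxa1 at 2.34-fold.

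Cell guidance genes were split higher in number but by small amounts. Of 34 semaphorin, ephrin, netrin and Slit genes above the floor, 11 (32.4%) were higher and 2 lower, and 0 had a 2-fold gap in either direction. The higher count moved with the floor, being 3 under a floor raised to the 70th percentile of the signal and 20 without one. The widest, named after values were seen, was Sema3c, a secreted semaphorin, at 727.6 and 270.0 in ventral mesencephalon and olfactory bulb cultures, against 151.8 and 113.6 in subventricular zone and hippocampus cultures. Adhesion genes of the integrin and focal adhesion list were split higher in 11 of 27 cases (40.7%) and lower in 5, with a 2-fold gap for Ddr2, a collagen receptor kinase, alone. In the cadherin and immunoglobulin list the mesenchymal cadherin Cdh11 was 2.42-fold higher and Alcam 2.24-fold higher, whereas Astn1, which serves neurons migrating along glia, was at least 3.28-fold lower and Cadm4 2.07-fold lower.

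Genes of protein folding in the endoplasmic reticulum, where they were split, were nearly always higher, by small amounts. Of 43 unfolded protein and heat shock genes above the floor, 16 (37.2%) were split higher, 1 was split lower, and 0 reached a 2-fold gap. The other 26 were not split; over the whole list the difference was positive for 28 genes and negative for 15, with a median of 0.16. Members are named here with their values already seen. Hspb1, a small heat shock protein, had 2774 and 3177 in ventral mesencephalon and olfactory bulb cultures, against 1480 and 1333 in subventricular zone and hippocampus cultures. The disulfide isomerase Pdia6 had 2240.0 and 2119 in ventral mesencephalon and olfactory bulb cultures, against 889.3 and 1360.4 in subventricular zone and hippocampus cultures. Calr, the calcium-binding chaperone calreticulin, had 6959 and 7057 in ventral mesencephalon and olfactory bulb cultures, against 5473 and 5561 in subventricular zone and hippocampus cultures. Hspa5, the central chaperone of the compartment, had 7740 and 6943 in ventral mesencephalon and olfactory bulb cultures, against 6324 and 5816 in subventricular zone and hippocampus cultures. A further Hspa5 probe set was not split. It had 2803 and 2424 in ventral mesencephalon and olfactory bulb cultures, against 1699 and 2690 in subventricular zone and hippocampus cultures. P4hb, also a subunit of collagen prolyl 4-hydroxylase and so a member of both lists, was higher by 1.46-fold. The sensor Atf6 was the lower member, at a log2 gap of -0.03. The median differences of the list were 0.20 and 0.26 for ventral mesencephalon against subventricular zone and hippocampus, and 0.19 and 0.12 for olfactory bulb against the same. Within the sides they were 0.08 and 0.06.

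Ribosomal protein genes were split higher more often than genes in general, but the bulb and the subventricular zone were level. Of 38 above the floor, 16 (42.1%) were split higher, 0 lower and 0 by 2-fold, and the difference between the sides was positive in all 38, with a median of 0.29. The members named were again chosen after their values were seen. Rps9 had 5242 and 5132 in ventral mesencephalon and olfactory bulb cultures, against 3925 and 3631 in subventricular zone and hippocampus cultures. Rps18 had 10675 and 9555 in ventral mesencephalon and olfactory bulb cultures, against 7314 and 6376 in subventricular zone and hippocampus cultures. The list median was 0.20 for ventral mesencephalon against subventricular zone and 0.57 against hippocampus. For olfactory bulb it was -0.02 against subventricular zone and 0.38 against hippocampus, and subventricular zone exceeded hippocampus by 0.37. The hippocampus array thus had the lowest ribosomal protein signals of the 4, and the others lay closer together. The 99th percentile of all signals was also lowest on the hippocampus array, at 5619 against 6863 to 7377 on the others. Its part in the ribosomal protein values was not tested.

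**Figure D3:**
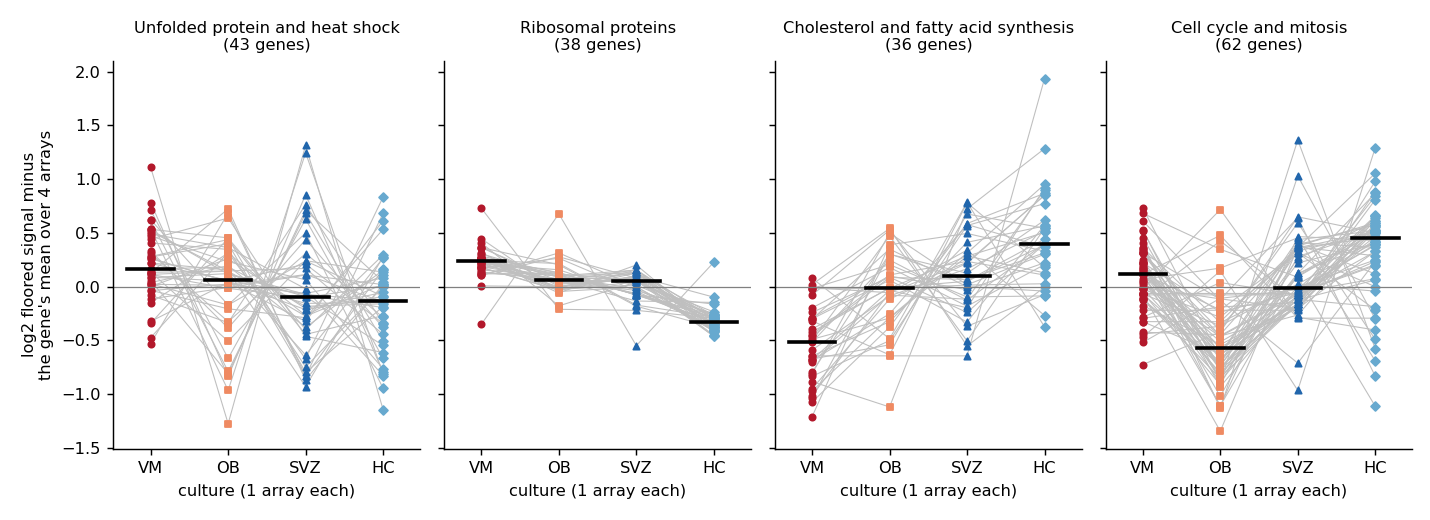
Log2 signal of each list member minus that gene's mean over the 4 arrays (vertical axis), for the ventral mesencephalon (VM), olfactory bulb (OB), subventricular zone (SVZ) and hippocampus (HC) arrays in 4 function lists. Points are genes joined by grey lines, and black bars are medians over the list. The 38 ribosomal protein genes drop mainly on the HC array, the 36 cholesterol and fatty acid genes are lowest on the VM array, and the 62 cell cycle genes are lowest on the OB array.

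Astrocyte functions were well represented among the lower genes. Kcnj10, the glial potassium channel Kir4.1, had 375.7 and 476.4 in ventral mesencephalon and olfactory bulb cultures, against 2667 and 4779 in subventricular zone and hippocampus cultures, a gap of 5.60-fold. Mlc1, a membrane protein of astrocyte endfeet, had 444.2 and 291.8 in ventral mesencephalon and olfactory bulb cultures, against 2455 and 3326 in subventricular zone and hippocampus cultures. Slc1a3, the glutamate transporter GLAST, had 641 and 706 in ventral mesencephalon and olfactory bulb cultures, against 2533 and 4328 in subventricular zone and hippocampus cultures, a gap of 3.59-fold. Of 39 astrocyte markers above the floor, 17 (43.6%) were split lower, 8 of them by 2-fold, and 1 was split higher, with a median difference of -1.18. The higher member was Gja1, connexin 43, by 1.08-fold. A further Gja1 probe set had a log2 gap of 0.523. It had 2039 and 4672 in ventral mesencephalon and olfactory bulb cultures, against 485.3 and 1419 in subventricular zone and hippocampus cultures. Another was not split, with 3066 and 5356 against 747.1 and 3205 in the same order. Gfap, the classical intermediate filament of astrocytes, was not split, with 1007 and 3800 in ventral mesencephalon and olfactory bulb cultures, against 3112 and 10027 in subventricular zone and hippocampus cultures. Gja1 and Gfap were named after their values were seen.

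Genes for handling glutamate, potassium and water were split in both directions, more often lower. Of 29 members above the floor, 12 (41.4%) were split lower and 4 (13.8%) higher, with a median of -0.25. The list median was -0.57 and -0.59 for ventral mesencephalon against subventricular zone and hippocampus. For olfactory bulb it was 0.0 and -0.06 against the same, and ventral mesencephalon minus olfactory bulb was -0.56. The lower list median thus came mainly from the ventral mesencephalon culture. The 2-pore potassium channel Kcnk1 was 4.11-fold lower, and its relative Kcnk2 at least 2.48-fold lower. The cystine-glutamate exchanger Slc7a11 was the 1 member with a 2-fold gap upward, at 359.1 and 934.5 in ventral mesencephalon and olfactory bulb cultures, against 164.4 and 120.6 in subventricular zone and hippocampus cultures. A different glutamate transporter, Slc1a6, known from Purkinje cells, was at least 4.47-fold higher, with 590.2 and 545.8 in ventral mesencephalon and olfactory bulb cultures, against 39.5 and 108.7 in subventricular zone and hippocampus cultures. Of 27 ion channels and pumps, 10 (37.0%) were lower and 1 higher. The sodium pump subunit Atp1b1 was 2.33-fold lower and the intracellular chloride channel Clic4 was 2.20-fold higher. The lists overlap, so their shares are not separate observations. Kcnj10, Kcnk1 and Kcnk2 are in both lists of this paragraph, and Kcnj10, Mlc1 and Slc1a3 are also astrocyte markers. Slc1a3 and Olig1 are in the radial glia and progenitor list, and Olig1 is also in the oligodendrocyte list.

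Progenitor genes made up the list with the largest lower share of those described here. Of 32 radial glia and progenitor genes above the floor, 17 (53.1%) were split lower, 8 by 2-fold, and 3 higher, with a median difference of -1.04. Prom1, which encodes the membrane protein prominin 1 of neural stem cells, had 333.1 and 110.9 in ventral mesencephalon and olfactory bulb cultures, against 1624 and 1744 in subventricular zone and hippocampus cultures. The glial lineage factor Olig1 had 620.7 and 171.1 in ventral mesencephalon and olfactory bulb cultures, against 3805 and 2700.0 in subventricular zone and hippocampus cultures. Msi1, an RNA-binding protein of stem cells, had 369.7 and 297.7 in ventral mesencephalon and olfactory bulb cultures, against 1337 and 1311 in subventricular zone and hippocampus cultures. Their gaps were 4.88, 4.35 and 3.55-fold, and the receptor phosphatase Ptprz1 followed at 3.36-fold. The higher members were Egfr, Hmga2 and Bmi1, the last 2 named after their values were seen.

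The Notch pathway, through which neighbouring cells hold each other as progenitors, contributed ligand and target in opposite directions. Jag1, a ligand, was at least 2.21-fold higher at 269.7 and 479.1 in ventral mesencephalon and olfactory bulb cultures, against 86.9 and 64.4 in subventricular zone and hippocampus cultures. Hey1, a target gene, was 2.34-fold lower at 370.6 and 360.8 in ventral mesencephalon and olfactory bulb cultures, against 867.9 and 873.9 in subventricular zone and hippocampus cultures, with hardly any difference within either side. Of 13 members, 6 were split lower and 3 higher. The list median of the difference between sides was 0.02, whereas its medians in the 4 single pairs were all below 0, from -0.14 to -0.30.

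Sterol and fatty acid synthesis was lower in the ventral mesencephalon and, less so, in the bulb. Of 36 genes above the floor, 15 (41.7%) were split lower and 2 (5.56%) higher, and the median difference was -0.46. Fads2, the delta-6 desaturase of polyunsaturated fatty acids, had 508.8 and 432 in ventral mesencephalon and olfactory bulb cultures, against 1553 and 2291 in subventricular zone and hippocampus cultures. Fdft1, squalene synthase, had 549.2 and 601.8 in ventral mesencephalon and olfactory bulb cultures, against 1401 and 1278 in subventricular zone and hippocampus cultures. Msmo1, a sterol demethylating oxidase, had 600.6 and 756.3 in ventral mesencephalon and olfactory bulb cultures, against 1590.2 and 1832 in subventricular zone and hippocampus cultures. Their gaps were 3.05, 2.12 and 2.10-fold, the 3 of the list that passed 2-fold. Srebf2, the transcription factor that drives the pathway, was lower by a log2 gap of -0.25, and Insig2, which restrains that factor, and the kinase Mvk were the 2 higher members, all 3 named after their values were seen. The list median was -0.68 and -1.02 for ventral mesencephalon against subventricular zone and hippocampus. For olfactory bulb it was -0.05 and -0.31, so the bulb culture was close to the subventricular zone culture.

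Cell cycle genes were more often split lower than higher, by small gaps. Of 62 above the floor, 21 (33.9%) were split lower, 4 (6.45%) higher and 0 by 2-fold, and the median difference was -0.44. Members are named here with their values already seen. The flap endonuclease Fen1 had the widest gap, at 169.2 and 208.9 in ventral mesencephalon and olfactory bulb cultures, against 439.3 and 396.5 in subventricular zone and hippocampus cultures. The replication clamp Pcna had 2485 and 2485 in ventral mesencephalon and olfactory bulb cultures, against 4025 and 3802 in subventricular zone and hippocampus cultures. Of the inhibitors that stop the cycle, Cdkn1a had 7465 and 5917 in ventral mesencephalon and olfactory bulb cultures, against 4942 and 2148 in subventricular zone and hippocampus cultures. Cdkn2a, with 162 and 208.4 in ventral mesencephalon and olfactory bulb cultures, against 79.4 and 38.5 in subventricular zone and hippocampus cultures, was higher too, whereas Cdkn1b was lower by 1.66-fold. The list median of ventral mesencephalon against subventricular zone was 0.00 and of olfactory bulb against subventricular zone -0.64, and ventral mesencephalon exceeded olfactory bulb by 0.70 within its own side.

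Amino acid and glycogen metabolism had split members in the lower direction alone. Of 34 genes above the floor, 11 (32.4%) were split lower and 0 higher, with 0 gaps of 2-fold. The difference was negative for 22 genes and positive for 12, with a median of -0.27. The glycine cleavage enzyme Gldc had 94.9 and 66.0 in ventral mesencephalon and olfactory bulb cultures, against 535.8 and 230.5 in subventricular zone and hippocampus cultures. Psat1 of serine synthesis had 1067 and 533 in ventral mesencephalon and olfactory bulb cultures, against 1952 and 1679 in subventricular zone and hippocampus cultures. Pygl, a glycogen phosphorylase, had 169.3 and 168.1 in ventral mesencephalon and olfactory bulb cultures, against 268.1 and 502.3 in subventricular zone and hippocampus cultures. These 3 were named after their values were seen. Antioxidant and detoxification genes went both ways, 10 of 57 (17.5%) higher and 9 (15.8%) lower; Gstm1, a glutathione transferase, was 2.68-fold lower and Gpx7, a peroxidase of the endoplasmic reticulum, 2.24-fold higher.

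Markers of neurons and ependyma were lower where they were split, and those of other neural cell types were mixed. Of 23 neuronal markers above the floor, 9 (39.1%) were lower and 0 higher; Scg5 and Scg3, granins of secretory vesicles that astrocytes can also express, were 5.63 and 3.69-fold lower, and 26 of the 49 measured markers, Rbfox3 and Snap25 among them, were at the floor throughout. Of 10 ependymal and cilia genes above the floor, 4 (40.0%) were lower, beside 20.0% of all genes, and 0 higher. They were led by Foxj1, the master factor of motile cilia. It had 304 and 74.4 in ventral mesencephalon and olfactory bulb cultures, against 919 and 1910 in subventricular zone and hippocampus cultures. The ependymal list median was -0.01 for ventral mesencephalon and -0.14 for olfactory bulb against subventricular zone. Against hippocampus it was -1.58 and -2.13, and subventricular zone minus hippocampus was -1.22. The lower ependymal median thus lay mainly against the hippocampus culture. In the oligodendrocyte list, where 5 of 12 were lower and 1 higher, Cd9 was 2.17-fold lower, and Mag, Mog and Mobp were at the floor throughout. Of 18 olfactory ensheathing and Schwann cell markers above the floor, 5 (27.8%) were split higher and 3 (16.7%) lower, with a median difference of 0.02. Septin4, a cytoskeletal GTPase, Car2, a carbonic anhydrase, and St8sia2, which builds polysialic acid, stood in no list and were lower by at least 7.26-fold, by 4.98-fold and by 4.38-fold.

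**Figure D4:**
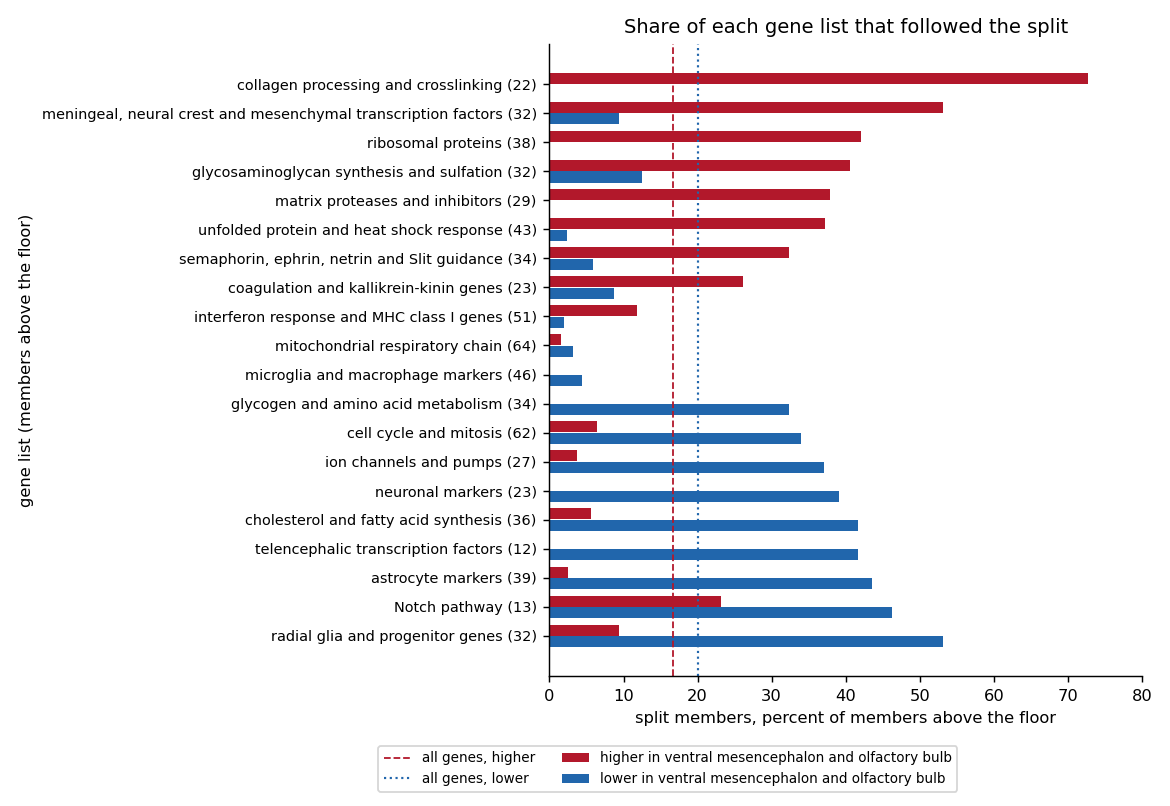
Share of the members above the floor (horizontal axis, percent) that were split higher (red) or lower (blue) in ventral mesencephalon and olfactory bulb cultures, for 20 gene lists with their number of members above the floor in parentheses. Dashed and dotted lines mark the shares over all 7987 genes, 16.7% higher and 20.0% lower. Collagen processing reaches 72.7% higher, and radial glia and progenitor genes 53.1% lower.

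Many functions did not follow the split. Of 64 mitochondrial respiratory chain genes above the floor, 1 was split higher and 2 lower, with a median difference of 0.02. Of 51 interferon and MHC class I genes, 6 (11.8%) were higher and 1 lower. Of 46 microglia and macrophage markers, 0 were higher and 2 lower, Tlr2, a receptor for bacterial lipoproteins, by 2.33-fold and Apobec1 by 2.18-fold. Cytokines and chemokines were split higher in 4 of 51 cases and lower in 4, and of 5 MHC class II genes above the floor 0 were split. None of the Hox genes measured was above the floor.

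Few lists held the split in every pair of arrays. Of 57 lists with at least 5 members above the floor, 13 had medians above 0 in all 4 pairs across the sides and 9 had medians below 0 in all 4. In 5 of the 13 and 4 of the 9, the smallest of the 4 pair medians also exceeded both within-side medians. The 5 higher lists were matrix proteoglycans and glycoproteins, collagen processing, matrix proteases, mesenchymal transcription factors, and unfolded protein and heat shock genes. The 4 lower lists were radial glia and progenitor genes, the Notch pathway, oligodendrocyte genes and neuronal markers. Some margins were narrow. Signs aside, the smallest pair median was 0.14 for the Notch pathway, against 0.11 for the larger within-side median. It was 0.06 against 0.01 for oligodendrocyte genes and 0.08 against 0.0 for neuronal markers. For unfolded protein and heat shock genes it was 0.12 against 0.08. For collagen processing the pair medians ran from 0.55 to 0.90, against -0.12 and -0.09 within the sides. For radial glia and progenitor genes they ran from -0.84 to -1.29, against 0.31 and 0.06 within the sides. Each pair shares an array with others, so the 4 medians are not separate observations.

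**Figure D5:**
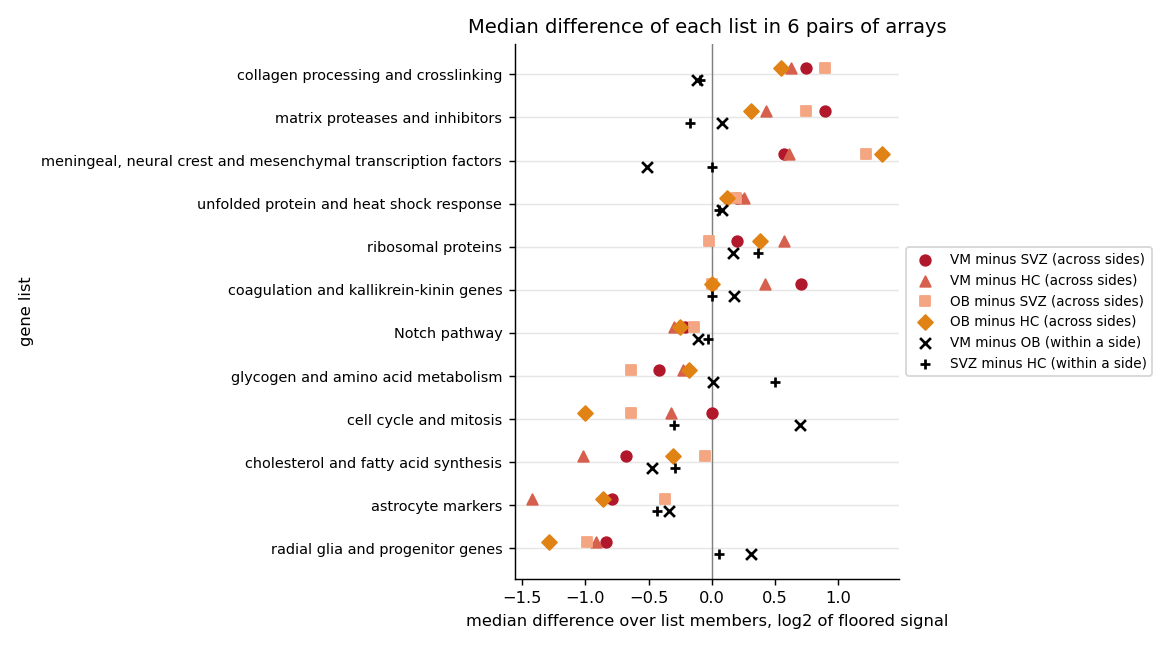
Median difference over list members (horizontal axis, log2) in 12 gene lists for the 4 pairs of arrays across the sides (coloured) and the 2 pairs within a side (black crosses). VM is ventral mesencephalon, OB olfactory bulb, SVZ subventricular zone and HC hippocampus. Collagen processing lies between 0.55 and 0.90 in all pairs across the sides, whereas ribosomal proteins include a pair at -0.02 and cell cycle genes a pair at 0.00.

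Further probe sets of the same genes on the same arrays mostly lay on the same side. Of the 96 higher 2-fold genes, 35 had 49 further probe sets above the floor, of which 39 were split higher and 0 lower. Of the 136 lower 2-fold genes, 51 had 67 further probe sets, of which 56 were split lower and 2 higher. Those 2 belonged to Qk, an RNA-binding protein of myelinating glia, and Arhgap12, the second named after its values were seen. Over all gaps, 440 of 858 further probe sets of higher genes were split the same way and 18 the opposite way, and for lower genes 436 of 750 and 11. Such probe sets share the culture and the array, so they speak to the probe and not to the region.

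Promoters of a few of the widest genes are shown because promoter sequence is a feature the split did not use. They are the 250 bases before the start of the gene in RefSeq's GRCm38.p6 table, all on the plus strand, for the 2 genes with the widest gap in each direction that the table holds. Capitals mark matches, on either strand and with overlaps allowed, to the letters TATAAA for the TATA box, CCAAT for the box of that name, GGGCGG for the GC box, TGANTCA for AP-1 or GGAATG for TEAD. Efemp1 encodes a fibulin of the matrix, higher by 7.05-fold, and its promoter at chr11:28852955-28853204 holds an AP-1 and a GC box match. The promoter of Serpinb9b at chr13:33027164-33027413 and that of Septin4 at chr11:87566439-87566688 hold none, and that of Lhx2 at chr2:38339031-38339280 holds GC boxes.
Efemp1: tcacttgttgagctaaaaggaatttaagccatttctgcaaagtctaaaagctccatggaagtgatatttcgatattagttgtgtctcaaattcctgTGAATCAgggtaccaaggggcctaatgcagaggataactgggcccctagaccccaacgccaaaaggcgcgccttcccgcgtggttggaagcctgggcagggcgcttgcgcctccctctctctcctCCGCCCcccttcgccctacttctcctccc
Serpinb9b: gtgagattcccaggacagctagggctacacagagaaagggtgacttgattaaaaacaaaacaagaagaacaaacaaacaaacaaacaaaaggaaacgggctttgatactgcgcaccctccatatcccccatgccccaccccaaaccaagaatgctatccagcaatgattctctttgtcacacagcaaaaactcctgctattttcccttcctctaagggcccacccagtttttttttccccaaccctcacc
Lhx2: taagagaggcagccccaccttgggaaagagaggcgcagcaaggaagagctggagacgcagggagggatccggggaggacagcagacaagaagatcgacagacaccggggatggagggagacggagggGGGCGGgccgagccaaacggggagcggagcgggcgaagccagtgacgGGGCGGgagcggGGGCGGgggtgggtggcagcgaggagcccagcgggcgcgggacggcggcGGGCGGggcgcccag
Septin4: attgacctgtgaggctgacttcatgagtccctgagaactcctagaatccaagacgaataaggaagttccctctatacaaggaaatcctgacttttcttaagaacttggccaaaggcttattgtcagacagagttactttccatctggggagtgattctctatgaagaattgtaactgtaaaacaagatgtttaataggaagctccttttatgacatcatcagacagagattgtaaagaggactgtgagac
The ratio of observed to expected CpG was 0.57 for Efemp1, 0.17 for Serpinb9b, 0.89 for Lhx2 and 0.1 for Septin4, beside a median of 0.75 over all matched promoters.

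Across the split as a whole, promoter letters differed little from those of all genes. Promoters were matched for 6503 of the 7987 genes (81.4%), and the median CpG ratio was 0.74 for genes split higher and 0.74 for genes split lower, beside 0.75 for all. A GC box match was present in 64.9% of higher, 60.0% of lower and 61.9% of all promoters, a CCAAT match in 34.9%, 40.1% and 36.4%, and a TATA box match in 6.56%, 5.24% and 6.44%. An AP-1 match was present in 4.12%, 4.03% and 4.4%, and a TEAD match in 11.1%, 10.2% and 10.4%. The lower 2-fold genes had a median CpG ratio of 0.63, from 110 of 136 promoters. For the higher 2-fold genes the check is void, because 61 of 96 (63.5%) were matched. In single lists the CCAAT share was 75.9% for cholesterol and fatty acid genes, 66.7% for cell cycle genes and 63.9% for unfolded protein and heat shock genes, against 33.3% for ribosomal protein genes. These lists lay on different sides of the split, and a letter match is not a binding site.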

How the data were processed

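Gene expression was measured in 4 astrocyte cultures, 1 array per region, with no replicate arrays. The deposited table holds a linear signal intensity for 22690 probe sets, made with GCOS 1.4, per the submitters' processing notes. Its summary algorithm was not given in the sources used here. Intensity values as deposited had trimmed means (2% cut) of 400.1 to 400.2, and were used without further scaling. The design text gives 4 littermates and then a pool of 3 pups. Probe sets with 1 gene symbol (20380, of which 20351 matched RefSeq) gave 12393 genes, each represented by the probe set with the highest mean log2 of the floored signal; 691 had several symbols and 1555 none. The floor was 122.1, the median signal. The gap is the lowest log2 value of the upper side minus the highest of the lower side. Named were the given markers, the 14 widest genes in each direction, the widest 2-fold members of each list, the tightest genes and those beside the 2-fold limit; other names were chosen after values were seen, as the text says. The members and lists were chosen with earlier results of these data known. There is 1 array per region, so no test was run; the number of arrays limits the precision. The median-based SD of the side difference was 0.14 (log2) per probe set, from 1977 genes. Medians of array pairs, further probe sets and the imprinted gene list were added after seeing the data. Alternatives were another floor, another probe set rule, another scaling, another gap size and leaving out the fibroblast, collagen, matrix glycoprotein and basement membrane lists. The split counting was run on simulated data with planted shifts far wider than most gaps here. That run checks the counting code and cannot tell how dependable the narrow gaps are. Python 3.11.15, numpy 2.4.6, pandas 2.3.3 and matplotlib 3.10.9 were used.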

Additional observations from a re-analysis of the deposited data

How the results depend on the processing

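The number of split genes depended on the floor, because a lower floor orders more dim genes. With the floor at the 30th percentile of the signal, 153 genes were higher and 241 lower by 2-fold; at the 70th percentile 59 were higher and 70 lower by 2-fold, and 966 were split lower at any gap. With no floor beyond a signal of 1, 2025 were split higher and 2724 lower, 286 and 468 of them by 2-fold. A gap of 1.5-fold gave 213 higher and 316 lower genes, and one of 3-fold gave 46 and 41. Scaling moved the balance: 1487 higher and 1434 lower after quantile normalization and 1550 and 1399 after scaling to the median, beside 1332 and 1598, with the median of all genes at 0.004 and 0.016, beside -0.023. Across the alternatives the ribosomal protein list had 16 to 24 members higher and 0 lower, with a median difference of 0.167 after quantile normalization beside 0.29, unfolded protein genes 13 to 18 higher and 0 to 3 lower, cell cycle genes 15 to 26 lower and cholesterol genes 12 to 17 lower. Other lists moved more, with 3 to 20 guidance genes and 11 to 25 mesenchymal transcription factors higher, and 5 to 21 neuronal markers, 7 to 22 ion channels, 4 to 10 telencephalic factors, 2 to 9 ependymal genes and 8 to 16 glycogen and amino acid genes lower. The median difference changed sign for eicosanoid genes with the lower floor (-0.0592) and for oligodendrocyte genes with no floor (0.0968). Medians close to 0 also crossed it, among them those of the Notch pathway (-0.297 to 0.0655), the respiratory chain (-0.0446 to 0.0627), glycolysis (-0.0516 to 0.1115), retinoic acid handling (-0.227 to 0.176), epithelial genes (-0.0913 to 0.367), endothelial markers (-0.684 to 0.194) and cytokines (-0.143 to 0.0361); the cause was not tested. No gap of a gene named by the rule changed sign under these alternatives, but a split that was lost was not counted as a change of sign. Of the gap values, 891 moved by less than the probe set SD of 0.14 or not at all, and 186 by more. They include the run without the fibroblast and matrix lists, which leaves the gaps of the remaining genes unchanged by construction. Regions have 1 array each, so spread between cultures of a region is unknown here, and signals near the floor have no dependable order. No paired analysis was possible because each region has 1 array and no test was run.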

Other observations

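Among the 2-fold genes, 16 of the 96 higher and 3 of the 136 lower were in the fibroblast, collagen, matrix glycoprotein and basement membrane lists. Another 51 higher and 47 lower were in the remaining lists alone, and 29 higher and 86 lower were in no list. The remaining lists include collagen processing, matrix proteases and mesenchymal transcription factors, with 5, 6 and 7 higher 2-fold genes. The share of all genes that these lists hold was not counted. Named after their values were seen, Abcg2, a drug efflux pump, had signals of 814.4 and 1320.1 in ventral mesencephalon and olfactory bulb cultures, against 204.6 and 233.5 in subventricular zone and hippocampus cultures. Vnn1, a pantetheinase, had 2644 and 584.2 in ventral mesencephalon and olfactory bulb cultures, against 79.0 and 156.5 in subventricular zone and hippocampus cultures. Wls, the carrier that Wnt proteins need for secretion, had 3492 and 3674 in ventral mesencephalon and olfactory bulb cultures, against 824.7 and 1403 in subventricular zone and hippocampus cultures. On the lower side, Metrn, a secreted glial factor, had 715.1 and 276.2 in ventral mesencephalon and olfactory bulb cultures, against 4350.4 and 2985 in subventricular zone and hippocampus cultures. The membrane glycoproteins Gpm6a and Gpm6b were lower by 4.18-fold and 2.27-fold, and Dtx1, a regulator of Notch, by 3.47-fold.

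A list of imprinted genes, added after the data were seen, was split in both directions. Of 19 above the floor, 3 (15.8%) were higher and 4 (21.1%) lower, close to the 16.7% and 20.0% of all genes. Grb10 had 3871 and 6263 in ventral mesencephalon and olfactory bulb cultures, against 461.7 and 1115 in subventricular zone and hippocampus cultures. Plagl1, a zinc finger factor, had 1525 and 1089 in ventral mesencephalon and olfactory bulb cultures, against 7234 and 3322 in subventricular zone and hippocampus cultures, and Mest was lower by 2.03-fold.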
